A study of Drosophila melanogaster with 3 samples.

Results

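Mitochondrial ribosomal protein genes are described here as targets in a chromatin map of Stripe in the Drosophila embryo. They were chosen by name: every protein-coding gene of Ensembl release 115 whose symbol starts with mRpL or mRpS followed by a number. The rule found 73 of 13945 protein-coding genes on the 6 main chromosome arms, namely 47 of the large subunit (mRpL) and 26 of the small subunit (mRpS). A gene was counted as called in a peak list when a peak summit lay within 1000 bp of one of its annotated transcription start sites (TSSs). The naming rule uses no measured value, though the gene family was picked with earlier results of these data known.

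The 3 libraries are biological replicates of 1 group. They come from whole embryos of the transgenic strain sr-GFP, which makes the zinc finger protein Stripe (gene sr) as an eGFP fusion. Chromatin was immunoprecipitated with an anti-GFP antibody according to the description of the samples, while their antibody entry reads sr. The age of 8 to 24 hours is that of the sample source, and a separate age entry lies far outside it and was not used. The embryos' cells were not sorted, so a peak is a pooled value over every cell type of the embryo, and a site bound in few cells cannot be told apart from a site bound weakly in many. All libraries were set against the same control file, there was no second genotype, stage or tissue, and no comparison between groups was possible.

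The mitochondrial ribosome translates the few mRNAs made from mitochondrial DNA, which encode core subunits of the oxidative phosphorylation complexes. Its proteins are encoded in the nucleus, made in the cytoplasm and imported, and its RNAs come from mitochondrial DNA. Some of the proteins have bacterial counterparts and keep their numbers, and others were gained by mitochondria and carry higher numbers. The genes are housekeeping genes of nearly every tissue. Stripe belongs to the EGR family of zinc finger factors and specifies tendon cells, the epidermal cells to which muscles attach, and EGR-type fingers recognise the core GTGGGCG or GTGGGTG.

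The DNA under the summits of 4 of the 6 genes called in all 3 libraries is shown first, so that a pair of strong peaks (mRpS23 and mRpS10) can be read beside a pair of weaker ones (mRpL44 and mRpL24). The following windows reach up to 100 bp to each side of the summit in the conservative list that the authors made from all libraries, and stop where a transcribed exon begins. They are the plus strand of the Release 6 genome from RefSeq, whose coordinates are those of dm6, and capitals mark an EGR core, which reads CACCCAC when it lies on the minus strand. The mRpS23 window is chr2L:13835359-13835559, the mRpS10 window chr3R:15229434-15229634, the mRpL44 window chr3R:5470797-5470925 and the mRpL24 window chr2L:4945447-4945578.
mRpS23: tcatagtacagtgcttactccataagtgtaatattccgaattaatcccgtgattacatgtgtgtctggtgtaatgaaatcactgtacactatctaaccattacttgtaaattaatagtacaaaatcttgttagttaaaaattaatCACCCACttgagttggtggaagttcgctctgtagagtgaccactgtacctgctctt
mRpS10: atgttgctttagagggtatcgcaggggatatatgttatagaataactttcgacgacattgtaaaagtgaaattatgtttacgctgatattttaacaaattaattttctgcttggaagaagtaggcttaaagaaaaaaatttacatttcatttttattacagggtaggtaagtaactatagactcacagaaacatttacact
mRpL44: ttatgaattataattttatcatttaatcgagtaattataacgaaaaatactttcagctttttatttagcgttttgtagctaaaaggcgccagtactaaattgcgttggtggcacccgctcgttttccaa
mRpL24: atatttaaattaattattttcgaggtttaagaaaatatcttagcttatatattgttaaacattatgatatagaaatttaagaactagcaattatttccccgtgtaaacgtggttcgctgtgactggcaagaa

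These windows were rich in A and T, with a G+C content of 35.8% at mRpS23, 29.9% at mRpS10, 32.6% at mRpL44 and 27.3% at mRpL24. Of the 4, the mRpS23 window alone held an EGR core. Across the 15 summits that called a mitochondrial ribosomal protein gene in the conservative list, 2 had an EGR core on either strand within 100 bp, 13.3%, against 607 of 1997 summits that called any protein-coding gene, 30.4%. The other core lay at mRpS31. The longest of the authors' joint lists added summits with a core at mRpL27 and mRpL35. Each core is shown with 11 bases on each side, read on the strand that carries GTGGGCG or GTGGGTG, to let the 4 sites be compared. They are chr2L:13835493-13835521 (minus strand), chr3L:16004535-16004563 (minus strand), chr2L:4459849-4459877 (plus strand) and chr3R:22023052-22023080 (plus strand).
mRpS23: caccaactcaaGTGGGTGattaattttta
mRpS31: gctgtgtctgtGTGGGCGtttataaataa
mRpL27: cactgccgcaaGTGGGTGgactgttgagt
mRpL35: cgtcagcgctgGTGGGTGaatggctggcc

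The mRpS31 core was GTGGGCG and the other 3 were GTGGGTG, and no shared base outside the core was searched for. The middle of the core lay 48 bp from the summit at mRpS23, 23 bp at mRpS31, 37 bp at mRpL27 and 39 bp at mRpL35. Such a match is a description of the letters and not a site of binding. In the windows from 250 bases before to 50 bases after the TSS, 3 of 73 mitochondrial ribosomal protein promoters held an EGR core, 4.11%, against 841 of 13945 promoters of all protein-coding genes, 6.03%. It was in 0 of the 15 promoters called in the conservative list and 3 of the 58 uncalled ones (5.17%). Of all called protein-coding promoters, 8.71% held one.

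In the conservative list, 15 of the 73 genes were called, 20.5% (Wilson 95% interval 12.9 to 31.2), against 15.2% of all protein-coding genes. The interval holds the share of all genes, so the count is not a result about mitochondrial ribosomal protein genes. Depth is unknown because the files give no read totals. The number of peaks past the authors' limit on the IDR (irreproducible discovery rate) is given instead. The IDR is low where a peak ranks high in both of the read sets compared. Intervals depend on the number of genes counted and the number called, and cover counting error only. The conservative list held 4044 peaks, and the thresholded lists of replicates 1, 2 and 3 held 2754, 1683 and 3013.

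The single libraries called 9 genes in replicate 1 (12.3%, interval 6.62 to 21.8), against 10.8% of all protein-coding genes. Replicate 2, with the fewest peaks, also called 9 (12.3%), against 6.9% of all protein-coding genes. Replicate 3 called 12 (16.4%, interval 9.66 to 26.6), against 12.4% of all protein-coding genes. The mean share was 13.7% ± 2.37 for mitochondrial ribosomal protein genes and 10.01% ± 2.81 for all protein-coding genes (SD, n = 3 replicates). The share was the higher one in 3 of 3 replicates, and each interval held the share of all genes. The longest joint list, with 5040 peaks, called 20 genes, 27.4% (interval 18.5 to 38.6), against 18.3% of all protein-coding genes, a value just outside the interval.

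**Figure D1:**
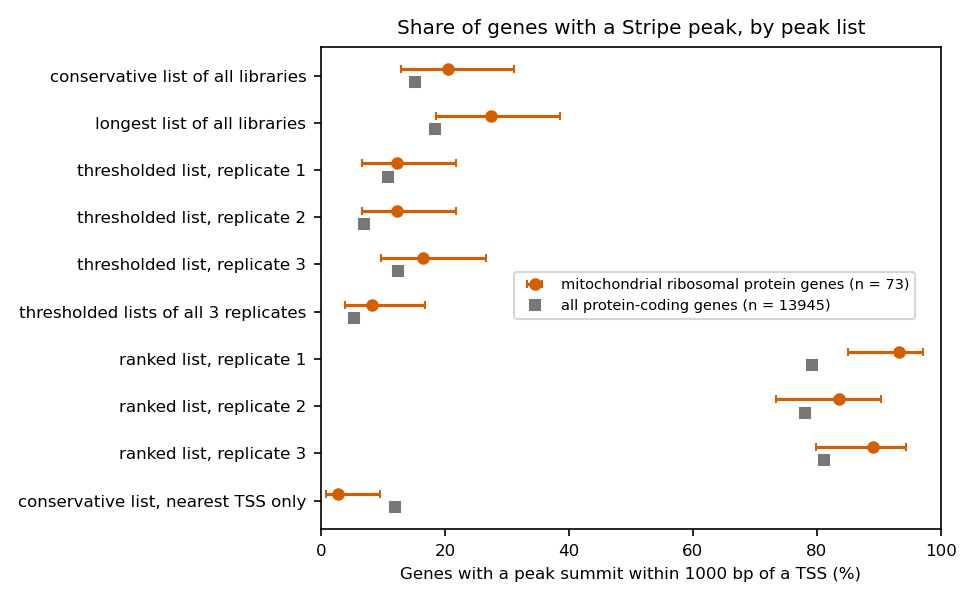
The horizontal axis gives the percentage of genes with a peak summit within 1000 bp of a TSS in each of 10 list settings, for the 73 mitochondrial ribosomal protein genes (circles, bars are Wilson 95% intervals) and for all 13945 protein-coding genes (squares). The circles lie right of the squares in 9 settings and left of it in the lowest, where a summit counts only for the nearest TSS (2.74% against 11.9%).

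The 3 libraries together called 6 genes, 8.22% (interval 3.82 to 16.8), against 5.28% of all protein-coding genes. They were mRpS23, mRpL41, mRpS10, mRpL23, mRpL44 and mRpL24, of which mRpS23 and mRpS10 encode small-subunit proteins and the others large-subunit proteins. Signals below are the authors' value for a peak, deposited without a stated normalization, so libraries were compared only by rank within their own list.

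mRpS23 (chr2L:13834250-13835072, minus strand) encodes a small-subunit protein without a bacterial counterpart. Its peak had a signal of 193 in replicate 1, 168 in replicate 2 and 325 in replicate 3, which ranked 38, 46 and 16 in the 3 thresholded lists. It was among the 50 strongest peaks of every library, and the 3 summits lay within 30 bp of each other. In the conservative list the peak, at chr2L:13835339-13835584 in intergenic DNA, had a signal of 680 and rank 22.

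mRpL41 (chr2R:15217024-15217617, minus strand), a gene of the large subunit, had signals of 163, 199 and 295 in replicates 1, 2 and 3. The ranks were 80, 18 and 22, and the summits lay within 20 bp. Here replicate 1 placed the peak lower than the other two libraries did. The conservative peak at chr2R:15217628-15217877 was intergenic, with a signal of 657 and rank 26.

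mRpS10 (chr3R:15229665-15230516, plus strand) encodes the counterpart of bacterial S10. Signals of 150, 207 and 272 gave ranks of 117, 13 and 23, again with the lowest placement in replicate 1. The 3 summits fell within 11 bp of each other, the tightest of the 6 genes. The conservative peak at chr3R:15229418-15229643 had a signal of 629 and rank 34.

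mRpL23 (chr3L:2372844-2373704, minus strand) encodes the counterpart of bacterial L23, a protein at the exit of the ribosomal tunnel. Its signals were 106, 121 and 222, with ranks 289, 110 and 53. Its summit was the only one of the 6 to fall inside the gene: the conservative peak at chr3L:2373489-2373729 (signal 449, rank 109) had its summit in the 5′ UTR of mRpL23, 106 bp after the first TSS. The 3 libraries placed it within 55 bp, the widest spread of the 6.

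The remaining pair was weaker. mRpL44 (chr3R:5469463-5470636, minus strand) had signals of 44.5, 56.9 and 86.6 and ranks of 1908, 715 and 655. mRpL24 (chr2L:4944256-4945361, minus strand), the counterpart of bacterial L24, had signals of 46.5, 42.7 and 73.4 and ranks of 1775, 1237 and 909. Both lay past the middle of the list in replicate 1, which held 2754 peaks.

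The 6 genes therefore fell into a strong and a weak set by percentile of signal within the thresholded lists, where 100 is the strongest. The mean over the 3 libraries was 98.5 ± 1.10 at mRpS23, 98.5 ± 1.17 at mRpL41, 98.1 ± 2.02 at mRpS10 and 93.8 ± 4.37 at mRpL23 (SD, n = 3). It was 55.5 ± 23.8 at mRpL44 and 44.0 ± 22.8 at mRpL24. The first 3 did not differ from each other beyond their spread, and neither did the last pair. The median over the 6 genes was 95.9, against 70.2 over the 736 protein-coding genes called in all 3 libraries. A median of 6 values that split in this way rests on the 4 strong genes.

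**Figure D2:**
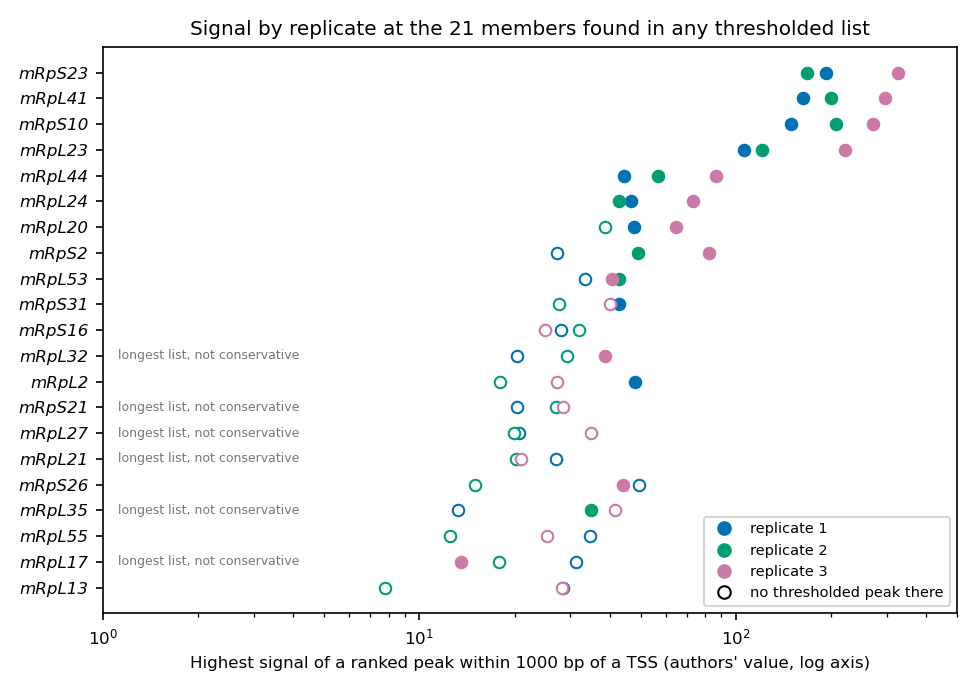
Each row is 1 of the 21 mitochondrial ribosomal protein genes in at least 1 thresholded or joint list, and the points give the highest signal of a ranked peak within 1000 bp of a TSS in replicates 1, 2 and 3 on a log axis (authors' value, no stated normalization). Filled points are libraries whose thresholded list calls the gene: the 4 uppermost genes sit between 106 and 325 in every replicate, and the other genes called in all libraries, mRpL44 and mRpL24, between 42.7 and 86.6.

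Another 3 genes were called in 2 libraries, 4.11%, against 3.89% of all protein-coding genes. mRpL20, the counterpart of bacterial L20, was called in replicates 1 and 3 and had ranked signals of 47.5, 38.5 and 64.5. Its peak in replicate 2 had an IDR of 0.0119, just past the limit of 0.01. mRpS2, the counterpart of bacterial S2, was called in replicates 2 and 3, with signals of 27.1, 49.1 and 82.3 and an IDR of 0.0606 in replicate 1. mRpL53, of the large subunit, was called in the same libraries, with signals of 33.5, 42.7 and 40.5 and an IDR of 0.015 in replicate 1. The conservative list holds all 3, mRpS2 at rank 1125, mRpL20 at rank 1215 and mRpL53 at rank 1971.

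A further 6 genes were called in 1 library, 8.22%, against 6.43% of all protein-coding genes. They were mRpL2 and mRpS31 in replicate 1, mRpL35 in replicate 2, and mRpL17, mRpL32 and mRpS26 in replicate 3. Of these, mRpL2, mRpS26 and mRpS31 were in the conservative list and the other 3 in the longest list. The limit is set on the IDR and not directly on signal. Thresholded peaks were still the stronger ones, with a median signal of 53.3 in replicate 1, against 10.6 in its ranked list. Single peaks could depart from this. mRpL17 was called in replicate 3 by a peak with a signal of 13.3, whereas mRpS26 had a signal of 49.4 in replicate 1 and was not called there (IDR 0.0189). The conservative list also held mRpL13, mRpL55 and mRpS16, which no single library called.

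The other 58 genes were called in no single library, 79.5%, against 84.4% of all protein-coding genes. Of them, 52 were in none of the 5 lists. Most of these still had weak peaks in the ranked lists, which the authors deposited before the limit was applied and which held 81528, 89928 and 88129 peaks. In replicate 1, 68 of the 73 genes had a ranked summit within 1000 bp of a TSS, 93.2% (interval 84.9 to 97.0), against 79.2% of all protein-coding genes. Replicate 2 gave 61, 83.6% (interval 73.4 to 90.3), against 78.1% of all protein-coding genes. Replicate 3 gave 65, 89.0% (interval 79.8 to 94.3), against 81.1% of all protein-coding genes. The interval lay above the share of all genes in replicate 1 and held it in replicates 2 and 3.

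A ranked summit in all 3 libraries was found at 56 of the 73 genes, 76.7%, against 63.1% of all protein-coding genes. The median percentile of the highest ranked peak, with genes without a peak set to 0, was 84.8, 78.2 and 84.4 in replicates 1, 2 and 3 for the 73 genes, against 72.6, 68.9 and 72.9 for all protein-coding genes. The median signal of those with a peak was 19.8, 17.9 and 20.5, against 17.6, 15.3 and 17.6. The share above the 95th percentile was 19.2%, 24.7% and 19.2% of the 73 genes, against 15.4%, 15.3% and 16.9% of all protein-coding genes. Peaks that are in the ranked lists alone did not pass the authors' limit, and their values are given as a description.

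**Figure D3:**
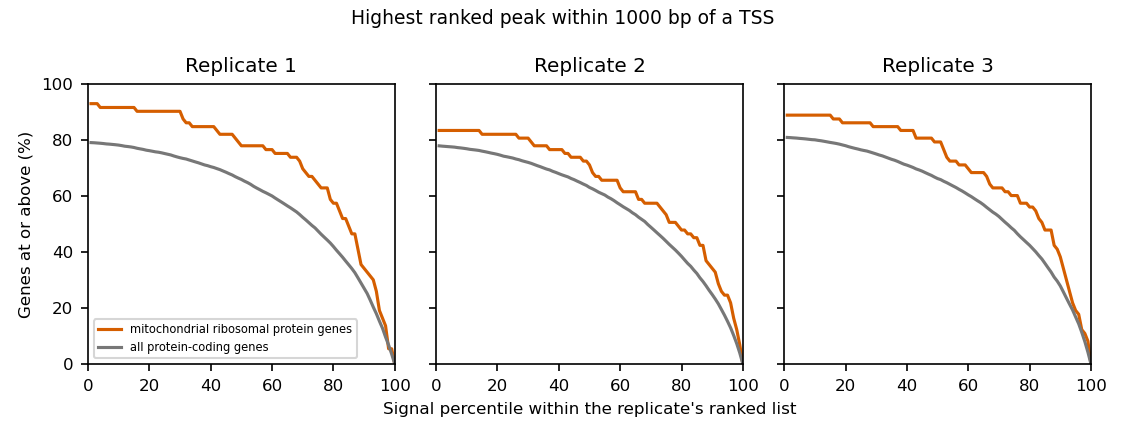
For each replicate, the vertical axis gives the percentage of genes whose highest ranked peak within 1000 bp of a TSS reaches at least the signal percentile on the horizontal axis, for the 73 mitochondrial ribosomal protein genes and for all 13945 protein-coding genes. The curve of the 73 genes starts at 93.2%, 83.6% and 89.0% in replicates 1, 2 and 3, above 79.2%, 78.1% and 81.1% for all genes, and the curves meet near the right end.

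The uncalled genes with the highest mean percentile in the ranked lists were mRpS11, mRpL43 and mRpS22. mRpS11 had signals of 25.8, 18.0 and 23.5, mRpL43 signals of 22.0, 24.7 and 18.1, and mRpS22 signals of 26.3, 19.6 and 18.1 in replicates 1, 2 and 3. Their mean percentiles of 90.6 ± 2.68, 89.4 ± 6.16 and 89.0 ± 5.36 (SD, n = 3) do not separate them. At the low end, mRpL49 had a ranked peak in replicate 3 alone (signal 11.8) and mRpL10 in replicate 1 alone (signal 10.5). mRpS5 had none in any library, and the nearest conservative summit lay 1626920 bp away.

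Many of the 15 genes in the conservative list share their promoter region with a neighbour, and the summit often lay closer to the neighbour's TSS. The gene's own TSS was the nearest one in 2 of 15 cases, mRpL23 and mRpL41, 13.3%, against 1618 of 2123 called protein-coding genes, 76.2%. Among called genes with a head-to-head neighbour, a gene on the opposite strand whose TSS lay upstream within 1000 bp, it was 2 of 14 (14.3%), against 596 of 1051 called protein-coding genes of that kind, 56.7%. When each summit was given to the nearest TSS only, 2 of 73 genes kept a call, 2.74% (interval 0.755 to 9.45), against 11.9% of all protein-coding genes. From these lists alone, a peak between a pair of promoters cannot be assigned to either gene.

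The arrangement itself is common in these genes. Such a head-to-head neighbour was found for 58 of 73 genes, 79.5%, against 4914 of 13945 protein-coding genes, 35.2%. The median distance between the TSSs of the pair was 283 bp, against 300 bp over all head-to-head genes. The genes were also short, with a median length of 909 bp against 2166 bp, and 91.8% had a single annotated TSS, against 73.5% of all protein-coding genes. Each of these properties is a fact of the annotation and holds whether or not Stripe is bound.

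Among head-to-head genes, 14 of 58 mitochondrial ribosomal protein genes were called in the conservative list, 24.1%, against 21.4% of all head-to-head protein-coding genes. Among the genes without such a neighbour, 1 of 15 was called, 6.67%, against 11.9% of all protein-coding genes of that kind. The head-to-head share lay near that of all genes, and the other share rests on 1 called gene. Among genes with 1 annotated TSS, 13 of 67 were called, 19.4%, against 10.2% of all protein-coding genes of that kind. Among those with 2 or more TSSs it was 2 of 6, 33.3%, against 29.1%. None of the 13 genes without another gene's TSS within 1000 bp was called, against 905 of 7960 such protein-coding genes, 11.4%.

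At the strong summits the neighbours have other roles. The mRpS23 summit lay 387 bp upstream of its TSS and 105 bp from the TSS of CenG1A, which encodes a GTPase-activating protein for Arf. The mRpS10 summit lay almost midway, 131 bp upstream of its TSS and 126 bp from that of Art3, which encodes an arginine methyltransferase. The mRpL41 summit lay 118 bp upstream of its TSS and 644 bp from that of CG8079. The mRpL23 summit lay 130 bp from the TSS of CG9004, on the far side of the mRpL23 TSS.

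Like those of mRpS23 and mRpS10, the following weaker summits were nearer to the neighbour. The mRpL44 summit was 29 bp from the TSS of Snr1, a subunit of the Brahma chromatin remodelling complex, and 261 bp from that of mRpL44. The mRpL24 summit was 32 bp from betaggt-I, which encodes a geranylgeranyl transferase subunit, and 186 bp from mRpL24. The mRpS2 summit was 37 bp from Mon1, a factor of endosome maturation, and 185 bp from mRpS2, and the mRpL20 summit was 122 bp from Icmt and 277 bp from mRpL20. The mRpL53 summit was 80 bp from AGO1, the Argonaute protein of microRNA silencing, in an AGO1 intron, and 90 bp from mRpL53. The mRpS16 summit was 2 bp from the TSS of combgap (cg), which encodes a zinc finger protein, and 95 bp from mRpS16.

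The remaining 5 summits lay inside a gene. It was in the 5′ UTR of CG13698 for mRpS26 (495 bp from the mRpS26 TSS), in the 5′ UTR of hzg for mRpS31 (621 bp) and in an intron of the forkhead gene FoxK for mRpL2 (700 bp). For mRpL55 it was in the 5′ UTR of the kinase gene cdi, 723 bp downstream of the mRpL55 TSS, and for mRpL13 in a coding exon of mRpL13 itself, 963 bp downstream. Of all 15 summits, 12 were upstream of the gene's TSS, against 1403 of 2123 (66.1%) over all called protein-coding genes. In head-to-head pairs, 9 of 14 summits fell between both TSSs, 64.3%, against 37.5% of all called head-to-head genes.

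**Figure D4:**
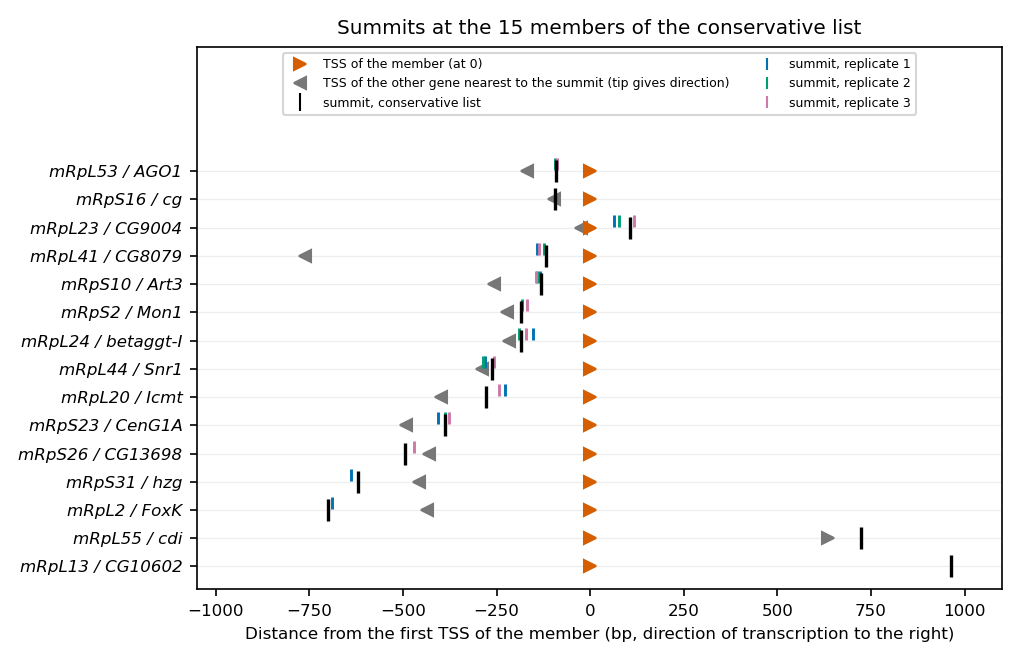
Each row is 1 of the 15 mitochondrial ribosomal protein genes of the conservative list, with distance in bp from its first TSS on the horizontal axis and transcription to the right. Black ticks are conservative summits, coloured ticks the summits of replicates 1 to 3 where the thresholded list has one, and grey triangles the TSS of the other gene nearest to the summit, at -24 bp for CG9004, at -762 bp for CG8079 and, for CG10602, beyond the right edge at 1569 bp.

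The limit of 1000 bp left few genes at its edge. Just inside were mRpL55 at 723 bp (signal 69.1) and mRpL13 at 963 bp (signal 59.3), the weakest summits of the 15. Just outside were mRpL22 at 1216 bp (signal 240) and mRpL27 at 1267 bp (signal 193), followed by mRpL34 at 2315 bp. The summit 1267 bp from mRpL27 lay 9 bp from the TSS of the cytoplasmic ribosomal protein gene RpL27A. The summit that puts mRpL27 into the longest list is another one, 188 bp upstream of its TSS and 44 bp from that of CG15435, with a signal of 71.8.

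The longest list held 6 genes that the conservative list did not: mRpL17, mRpL21, mRpL27, mRpL32, mRpL35 and mRpS21. The nearest TSS was again that of a neighbour in 5 of them: Tudor-SN for mRpL17, rept for mRpL21, CG15435 for mRpL27, Droj2 for mRpS21 and Mitofilin for mRpL35. Mitofilin encodes a protein of the mitochondrial inner membrane, and the summit lay 31 bp from its TSS and 422 bp from that of mRpL35. The exception was mRpL32, whose summit was 122 bp upstream of its own TSS and 142 bp from that of qless. Signals at these 6 were between 61.0 and 89.1 in the longest list, with ranks from 2948 to 4630.

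The subunits were called at like shares. The conservative list held 9 of 47 large-subunit genes, 19.1% (interval 10.4 to 32.5), and 6 of 26 small-subunit genes, 23.1% (interval 11.0 to 42.1), and the intervals overlap widely. Over all protein-coding genes the conservative share was 15.2%. In all 3 libraries the counts were 4 of 47 (8.51%) and 2 of 26 (7.69%), against 5.28% of all protein-coding genes. Split by number, 7 of 31 genes with numbers above those of bacterial ribosomal proteins were called, 22.6%, against 8 of 42 with numbers up to 36 in the large and 21 in the small subunit, 19.0%. No difference between the classes was detectable at these counts. By chromosome arm, 4 of 12 genes were called on 2L (14.2% of all protein-coding genes there), 3 of 12 on 2R (16.8%), 5 of 17 on 3L (16.3%), 3 of 21 on 3R (14.8%) and 0 of 11 on X (14.3%).

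Other promoter words were searched on both strands in the windows from 250 bases before to 50 bases after the TSS. The DNA replication-related element TATCGATA was found in 15 of 73 promoters of mitochondrial ribosomal protein genes, 20.5%, against 9.37% of all protein-coding promoters. It was in 2 of the 15 promoters called in the conservative list (13.3%), against 13 of the 58 uncalled ones (22.4%), and within 100 bp of none of the 15 summits. Of all called protein-coding promoters, 12.2% held it. The core of motif 1, GGTCACAC, was in 8 promoters (11.0%, against 7.71% of all), and the E-box CACGTG in 5 (6.85%, against 4.24%). GAGAG was in 12 promoters, 16.4%, against 29.8% of all. It was near 3 of the 15 summits, a small count, 20.0%, against 39.1% of the summits at all protein-coding genes. TATAAA was in 34 promoters, 46.6%, against 45.9% of all, and the ETS word CCGGAAG was in 0 of 73, against 1.10% of all. In the 15 called and 58 uncalled promoters, the shares were 20.0% and 8.62% for the motif 1 core and 26.7% and 13.8% for GAGAG. They were 6.67% and 6.90% for the E-box and 40.0% and 48.3% for TATAAA. Each word was searched on its own, and overlaps between words were not removed.

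The same count was made for genes of other steps in mitochondrial gene expression and energy supply. Of the mitochondrial ribosomal proteins under other names, tko and bonsai, neither was called in the conservative list. None of 9 mitochondrial translation factor genes was called, which allows a share of up to 29.9% (upper Wilson bound). Of 15 mitochondrial aminoacyl-tRNA synthetase genes, 1 was called, 6.67% (interval 1.19 to 29.8), against 15.2% of all protein-coding genes. It was LeuRS-m, called by a summit (signal 157) closer to Dhc64C. Of 14 genes of mitochondrial DNA maintenance and transcription, 3 were called, 21.4% (interval 7.57 to 47.6), against 15.2% of all protein-coding genes.

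Those 3 were SLIRP2, an RNA-binding protein gene, with a signal of 318 and its own TSS nearest, mtSSB, the single-strand binding protein of mitochondrial DNA, with 228 and its own TSS nearest, and mtTFB1, with 98.5 and a summit nearer to CG11658. SLIRP2 had signals of 89.7, 71.5 and 159 and mtSSB signals of 108, 51.4 and 92.4 in replicates 1, 2 and 3. Both were called in every library.

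Of 86 oxidative phosphorylation genes, 5 were called, 5.81% (interval 2.51 to 12.9), below the 15.2% of all protein-coding genes. They were ATPsynD, ATPsynG, COX7B, ND-51 and ND-ASHI, and each summit lay closer to the TSS of another gene. The summit counted for ATPsynD is the one at cdi that was counted for mRpL55, since ATPsynD and mRpL55 are a head-to-head pair. Of 15 genes of the protein import machinery, 2 were called, 13.3% (interval 3.74 to 37.9), against 15.2% of all protein-coding genes. Tim17a2 had a signal of 699 at rank 20, with its own TSS nearest and an EGR core within 100 bp. Tom7 had a signal of 121, with the TSSs of CG33199 and CG8229 nearest. The cytoplasmic ribosomal protein genes stood at 59 of 92, 64.1% (interval 53.9 to 73.2). In all 3 libraries, 6 of the 73 mitochondrial ribosomal protein genes were called (8.22%), against 31 of the 92 cytoplasmic ones (33.7%).

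**Figure D5:**
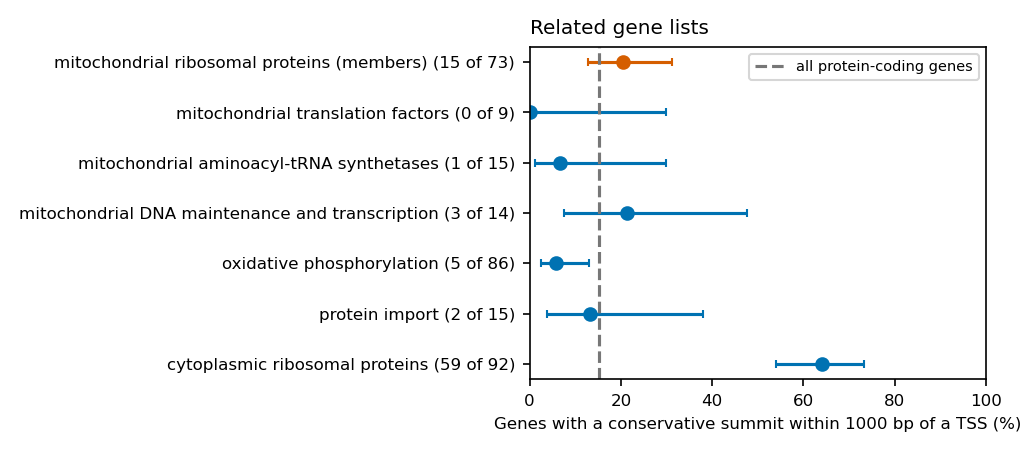
The horizontal axis gives the percentage of each gene list with a conservative summit within 1000 bp of a TSS (points) and its Wilson 95% interval (bars), with the number called in the labels, and the dashed line marks 15.2% for all protein-coding genes. The mitochondrial ribosomal protein genes lie at 20.5% with the line inside their interval, the oxidative phosphorylation genes at 5.81% and the cytoplasmic ribosomal protein genes at 64.1%.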

How the data were processed

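Stripe ChIP-seq peaks of 3 replicates were taken as the authors deposited them: for each library a ranked and a thresholded list, and joint thresholded lists of the series, of which the conservative and the longest were used. Per the submitters' labels the assembly is dm6. Which aligner and peak caller were used is not given in the sources used here. The authors' signal values have no stated normalization. Other limits were set on the −log10 global IDR that the authors deposited, and each peak of the deposited thresholded lists had a global IDR of 0.01 or less.

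TSSs came from Ensembl release 115 and sequence from RefSeq, both on Release 6. A peak's summit was counted for every gene with a TSS within 1000 bp. The members and lists were chosen with earlier results of these data known, so shares are given beside all protein-coding genes with Wilson 95% intervals and no test. Named genes are those called in all 3 libraries, the 10 highest in the ranked lists, every gene of the conservative list, and the 3 highest and 3 lowest of the genes in no thresholded list. Genes of the longest list and the related gene lists were named after their values were seen. Motifs were 7 words searched on both strands. Alternatives covered the window, the list, the limit, the nearest TSS, the motif window and each left-out replicate. Counting was tested on simulated data. Python 3.11.15, numpy 2.4.6, scipy 1.17.1 and matplotlib 3.10.9 were used. No p-value was computed.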

Additional observations from a re-analysis of the deposited data

How the results depend on the processing

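The 15 genes called in the conservative list became 7 with a window of 250 bp (9.44% of all protein-coding genes) and 2 with the nearest TSS only (11.9%). Counting only genes without another gene's TSS within 1000 bp left 0 of 13, against 11.4% of such protein-coding genes. The 2 last settings remove genes by construction. The count stayed within 1.5 times under the other settings, between 11 and 20. The 6 genes called in all libraries became 10 with a window of 2000 bp (7.22% of all protein-coding genes) and 2 with the nearest TSS only (4.01%). Without replicates 1, 2 and 3 they were 8, 7 and 6 (6.08%, 7.95% and 5.69% of all protein-coding genes). In replicate 1 the count of 9 became 5 with a window of 250 bp (6.36% of all protein-coding genes) and 16 at a global IDR of 0.05 (16.1%). The 2 summits with an EGR core became 1 with a motif window of 50 bp, 4 with 250 bp and 4 among the 20 genes called in the longest list. The share over the summits of all protein-coding genes was not computed at these settings. The median percentile of 95.9 became 99.9 in the ranked lists, which hold many more weak peaks (all called genes 99.2), and lay between 94.5 and 97.2 with a replicate left out. In the other 20 settings counts stayed within 1.5 times and the median within the spread between replicates. The cause was not tested elsewhere. Depth is unknown, the counts are small, and the signal has no stated unit. No paired analysis was possible because there is 1 group.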
